A study of Mus musculus with 6 samples.

Results

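miR-218 is a conserved microRNA (miRNA) that lies inside a pair of Slit genes. It was followed here through the sense entries of its 2 hairpin loci, Mir218-2 in Slit3 and Mir218-1 in Slit2, which gave 4 entries (a 5p and a 3p arm at each locus) of the 1102 in the deposited files. The files describe small RNA from the hearts of 6 wild-type C57BL/6J male mice aged 18 weeks, with 1 library each and no treatment, so the samples form 1 group and no condition was contrasted. The labels call the tissue whole heart, whereas the extraction protocol mentions frozen ventricular apexes. Nothing in the labels gives a pooling of animals, and the libraries are numbered heart 1 to heart 6 after their titles.

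An miRNA is cut as a short strand from either side of a hairpin precursor, and usually the strand from 1 arm is loaded into the silencing complex while its partner is degraded. Bases 2 to 8 of the loaded strand, the seed, pair with target messengers. Slit proteins are secreted guidance ligands that act through Robo receptors, and miR-218 is known to repress Robo1, so that an intron of the ligand gene encodes a repressor of the receptor. In zebrafish this loop is known from the migration of heart precursor cells, and in mouse miR-218 is best known as an abundant miRNA of motor neurons.

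The mature strands are shown because the locus of a read can be told from the 3p strand but not from the annotated 5p strand. Sequences are those of RefSeq for GRCm38.p6, where all 4 entries matched by position, written 5′ to 3′ with the seed in capitals.
miR-218-5p (both loci): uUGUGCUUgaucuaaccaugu
miR-218-2-3p (Mir218-2): cAUGGUUCugucaagcaccgcg
miR-218-1-3p (Mir218-1): aAACAUGGuuccgucaagcacc
The 5p strand of 21 bases is identical at the loci. The 3p strands, 22 bases each, start 3 bases apart on the hairpin and overlap over 19 bases, of which 18 match. The single difference is C12U, counted from the 5′ end of miR-218-1-3p with its base first. The offset gives the 3p strands different seeds, AUGGUUC for miR-218-2-3p and AACAUGG for miR-218-1-3p. Of 1679 mature names in the RefSeq table, the seed of miR-218-5p recurred once, in miR-7002-3p, and that of miR-218-1-3p once, in miR-496b, while no other entry of that table shared the seed of miR-218-2-3p.

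The hairpins are shown with both mature strands in capitals, so that the bases around the shared 5p strand can be compared.
Mir218-2, chr11:35616816-35616925, plus strand: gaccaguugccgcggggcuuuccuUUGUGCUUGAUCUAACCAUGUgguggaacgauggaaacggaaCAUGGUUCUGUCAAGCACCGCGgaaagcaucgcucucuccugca
Mir218-1, chr5:48223942-48224051, plus strand: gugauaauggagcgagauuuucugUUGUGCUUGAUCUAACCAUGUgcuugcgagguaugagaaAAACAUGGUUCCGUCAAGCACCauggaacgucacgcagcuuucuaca
Each hairpin is 110 bases long, and their alignment had 81 identical positions and 24 mismatches. The hairpins already differ at the base just before the 5p strand, and after it they share 1 base before they diverge. A read that covers only the annotated 5p strand therefore carries no base that tells the loci apart. The GC content was 54.5% for the Mir218-2 hairpin and 45.5% for Mir218-1, with a median of 51.7% over the 997 RefSeq mouse hairpins in the table. The predicted minimum free energy was -42.3 kcal/mol for Mir218-2 and -36.6 kcal/mol for Mir218-1. Per base, 59.0% and 77.5% of the hairpins in the table were predicted to be more stable than Mir218-2 and Mir218-1, in that order.

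Both hairpins are intronic and lie on the strand of their host gene. By GENCODE M21, on the same build, Mir218-2 lies in intron 14 of the coding transcript of Slit3 that spans it, an intron of 9571 bases, 495.6 kb downstream of the annotated start of Slit3. Mir218-1 lies 240.8 kb downstream of the annotated start of Slit2, in intron 14, 15 or 16 of the coding transcripts that span it. No exon of an annotated Slit2 or Slit3 transcript overlapped either hairpin. The 4 members were the only entries of the files within the bounds of the 2 host genes.

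The libraries held 3966169 to 6007322 counts, and all levels below are counts scaled to a library of 1000000 counts (CPM). The 6 cardiac and skeletal muscle miRNAs used as tissue markers summed to 99414 ± 4629 CPM (SD, n = 6), with miR-133a-3p at 89004 ± 4407 CPM. The neural markers, miRNAs of the tissue in which miR-218 is best known, summed to 261 ± 55.3 CPM (range 184 to 339), and 232 CPM of that was miR-128-3p. Of the 7 neural markers, 3 averaged 10 reads or more. The neuron-specific miR-124-3p had 19 reads in heart 4 and 0 to 4 in each of the other 5 hearts, where hearts 3 and 6 were at 0. Heart 4 stood apart in this way, and heart 5 had the highest miR-218, so the spread, locus, arm and arm-by-locus results are also given without both. Correlations were not computed without both. Those of miR-218-5p are instead given without hearts 2 and 5, which lay farthest from its median. The part that neural tissue may have in the miR-218 reads was not tested.

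miR-218-5p was a miRNA of moderate abundance that differed between hearts. Its reads, summed over the loci, numbered 192, 118, 121, 186, 343 and 173 in hearts 1 to 6. On the CPM scale these were 40.3, 23.8, 28.6, 46.9, 57.1 and 30.9. Heart 5 was the highest and heart 2 the lowest, 2.40-fold apart, and their exact Poisson 95% intervals (51.2 to 63.5 CPM in heart 5 and 19.7 to 28.5 CPM in heart 2) did not overlap. Ordered by level, each heart's interval overlapped that of the next, so the counts do not settle the order of neighbours. These intervals cover counting error only. The reads carried no molecular identifiers, so repeated copies of a molecule could not be told apart.

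Over the 6 hearts miR-218-5p averaged 37.9 ± 12.6 CPM (SD, n = 6). In tissue RNA, fewer cells that make an miRNA and less of it per cell cannot be told apart. It ranked at place 177 of 1009 mature miRNAs, near the median of 36.6 CPM among those that averaged 10 reads or more. The places just above it were held by miR-874-3p (39.7 ± 7.27 CPM), miR-365-3p (39.6 ± 7.17 CPM) and miR-21a-3p (39.5 ± 17.8 CPM). The places just below it were held by miR-141-3p (37.4 ± 6.04 CPM), miR-106b-3p (35.7 ± 2.83 CPM) and miR-676-3p (34.98 ± 7.19 CPM). None of these 6 differed in mean from miR-218-5p by more than the SD of miR-218-5p.

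The spread of miR-218-5p between hearts was larger than counting noise allows. Its 6 counts departed from a constant share of the TMM-scaled libraries (chi-square test of read counts, adjusted p = 8.18e-17 over 356 miRNAs), where 70.2% of those miRNAs did so. Among the 76 miRNAs within 2-fold of its read number 71.1% departed, so the departure alone did not set miR-218-5p apart. Its plain coefficient of variation (SD over mean of scaled CPM) was 29.7%, against a median of 15.7% among those 76, of which 5 were more variable. Its biological coefficient of variation (BCV) estimated by edgeR was 25.2%, and 18.9% was the common value. Without hearts 4 and 5 the BCV was 18.1% and the adjusted p of the chi-square test was 0.000397. These hearts had the highest miR-218-5p, at 46.9 and 57.1 CPM, so a smaller spread without them follows in part from their choice.

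**Figure D1:**
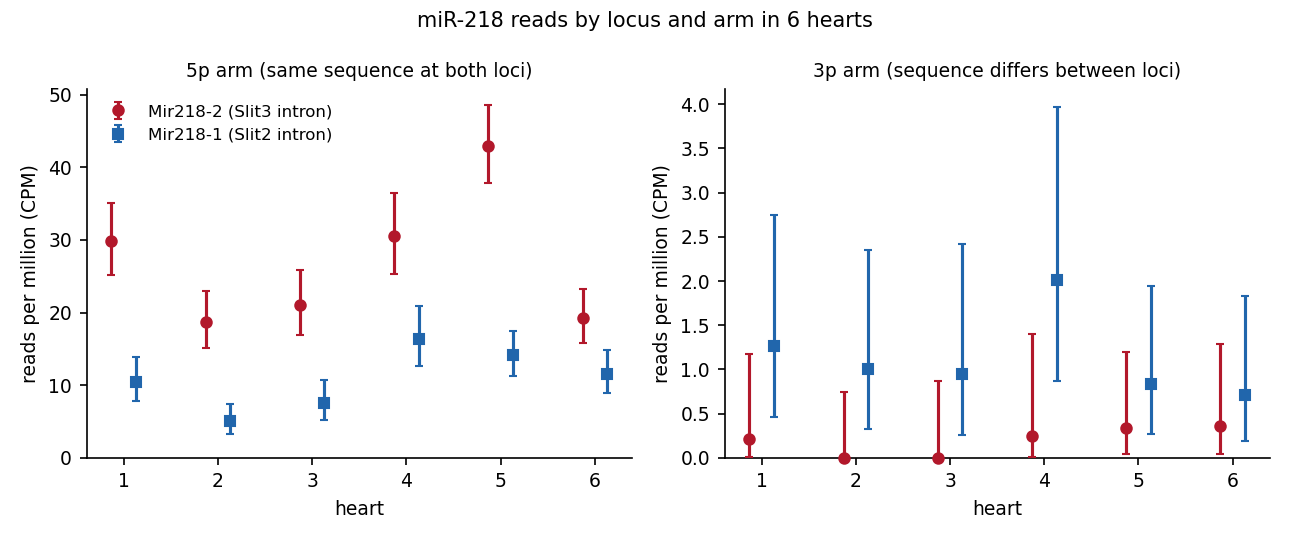
Level of each miR-218 entry (CPM, linear axes that differ between panels) in hearts 1 to 6, with the 5p arm on the left and the 3p arm on the right. Points are single libraries and bars are exact Poisson 95% intervals. In every heart Mir218-2 (circles, Slit3) lay above Mir218-1 (squares, Slit2) for the shared 5p strand, and below it for the 3p strands.

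The entries of the 5p strand gave most of its reads to the Slit3 locus. Mir218-2-5p had 142, 93, 89, 121, 258 and 108 reads in hearts 1 to 6, and Mir218-1-5p had 50, 25, 32, 65, 85 and 65. Their means were 27.1 ± 9.36 CPM for Mir218-2-5p and 10.9 ± 4.17 CPM for Mir218-1-5p (SD, n = 6), and the groups of 6 values did not overlap. Mir218-2 thus held 71.6% of the 5p reads pooled over hearts (exact binomial 95% interval 68.9% to 74.2%), with 62.4% in heart 6 as the lowest and 78.8% in heart 2 as the highest share.

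These shares are those of the files' assignment, since the strand itself does not tell the loci apart. How reads that match several loci were assigned is not given in the sources used here. Reads that cover only the annotated strand would give equal counts if counted in full at each locus or split evenly. The interval of the pooled share lies above 50%, so neither holds if all reads were of that kind. Reads that extend past the strand can carry a differing base and would make the counts unequal under either scheme. The counts do not give read ends, so they cannot decide between these schemes. The share varied between libraries by more than counting noise (chi-square test of the 5p counts of both loci over the 6 libraries, p = 0.0044, chosen after the values were seen). That test takes reads as independent and covers counting error only. Among 28 pairs of loci numbered 1 and 2 that share an arm sequence and averaged 10 reads or more, locus 2 held a median of 71.5% of the reads, with a range of 5.81% to 97.2%, and 1 pair had a share between 45% and 55%. An uneven assignment was therefore common to shared strands in these files.

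The 3p strands, which do carry the difference between the loci, gave the opposite order on few reads. miR-218-2-3p had 1, 0, 0, 1, 2 and 2 reads in hearts 1 to 6, and miR-218-1-3p had 6, 5, 4, 8, 5 and 4. In each heart the Slit2 strand had more reads than the Slit3 strand, and the ranges of 0 to 2 and 4 to 8 reads did not overlap. The levels were 0.192 ± 0.158 CPM for miR-218-2-3p and 1.13 ± 0.472 CPM for miR-218-1-3p (SD, n = 6). The zeros in hearts 2 and 3 allow up to 0.604 and 0.710 CPM by the limit of 3 counts per library, which is one-sided. The upper ends of the two-sided exact Poisson 95% intervals were higher, at 0.743 and 0.873 CPM.

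Pooled, Mir218-2 held 6 and Mir218-1 32 of the 38 reads of 3p strands, which is a share of 15.8% for Mir218-2 (exact binomial 95% interval 6.02% to 31.3%). The pair fell under the minimum mean of 10 reads that was set for the test, which 13 pairs met and 61.5% of them passed in either direction. Fitted with no minimum, miR-218-2-3p was 4.86-fold lower than miR-218-1-3p (log2 ratio -2.28 ± 0.61, SE, edgeR quasi-likelihood test, adjusted p = 0.00052, lower in 6 of 6 hearts). Without hearts 4 and 5 the log2 ratio was -2.48 (edgeR quasi-likelihood test, adjusted p = 0.0124), a setting added after the values were seen. An exact sign-flip permutation test over the 6 hearts, two-sided and chosen after the values were seen, gave p = 0.03125, the smallest possible with 6 hearts. The 3p strands differ at both ends and ligation favours some RNA ends, so this ratio is one of reads. Whether it holds for the output of the loci was not tested. A difference between loci is common among such pairs. Of 20 pairs with a differing arm, 50% were called with no minimum (adjusted p under 0.05 and at least 2-fold) and 20% were called with locus 2 lower. A pair counted as differing where neither annotated sequence contained the other. Strands merely shifted along the same sequence would count too, and reads of such pairs may not separate by locus. Pairs of that kind were not sorted out, so these shares are a loose background.

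The 3 locus pairs nearest to it in read number went either way. For miR-450-3p, locus 2 had 4 and locus 1 had 20 reads (log2 ratio -2.13 ± 0.71), for miR-3074-5p 16 and 7 reads (1.11 ± 0.67), and for miR-181b-3p 23 and 45 reads (-0.95 ± 0.43). The log2 ratios of all 20 pairs ran from -7.14 to 4.75, and 2 pairs lay below miR-218. All these differences were fitted on the spread pooled over the pairs.

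**Figure D2:**
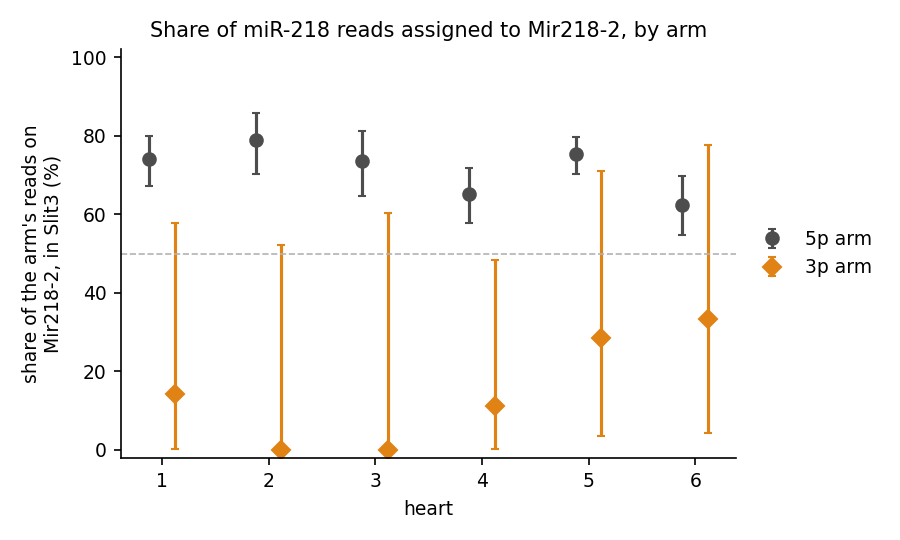
Share of the reads of each arm (percent) that were assigned to Mir218-2 in Slit3, in hearts 1 to 6, with exact binomial 95% intervals; the dashed line marks 50%. The 5p shares (circles) ran from 62.4% to 78.8% and the 3p shares (diamonds) from 0 to 33.3%, with the wide 3p intervals that 4 to 9 reads allow.

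The locus with most reads thus differed between the arms. The share of Mir218-2 was 71.5% ± 6.35 among 5p reads and 14.6% ± 14.0 among 3p reads (SD, n = 6), a difference of 56.95 ± 18.2 percentage points in the same direction in 6 of 6 hearts (exact sign-flip permutation test, two-sided, p = 0.03125, the smallest possible). In a fit of arm and locus together, chosen after the values were seen, the 5p over 3p ratio was larger at Mir218-2 than at Mir218-1 by 3.61 ± 0.56 on the log2 scale (SE, edgeR quasi-likelihood test, adjusted p = 9.68e-10). Of the 20 miRNAs tested in this way 75% were called in either direction. They were taken whatever the sequences of their arms, so not all are built like miR-218. In miR-133a, miR-199a and miR-9 both arms share their sequence between loci, so their values rest on the files' assignment. Of these, miR-199a and miR-9 were called and miR-133a was not. In miR-24 both arms counted as differing. With hearts 4 and 5 left out the value for miR-218 was 3.82 (adjusted p = 7.42e-07).

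Read as they stand, the entries give Mir218-2 135 reads of 5p per read of 3p (exact binomial 95% interval 61.8 to 369) and Mir218-1 10.1 (6.99 to 14.96). These arm ratios of single loci inherit the assignment of the shared strand and are not properties of the hairpins alone. Among 17 miRNAs with 1 shared and 1 differing arm at loci 1 and 2, 9 (52.9%) had the majority of each arm at opposite loci, as miR-218 did, and the gap between arms was larger than that of miR-218 in 4. The 4 include miR-450, with 75.2% of the shared and 16.7% of the differing arm at locus 2. No minimum of reads was set for the 17. The differing arm had only 6 reads in miR-365, 8 in miR-138, 10 in miR-194 and 14 in miR-129, so their side of 50% is uncertain. Of these, all but miR-365 are among the 9, and miR-129 is among the 4.

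**Figure D3:**
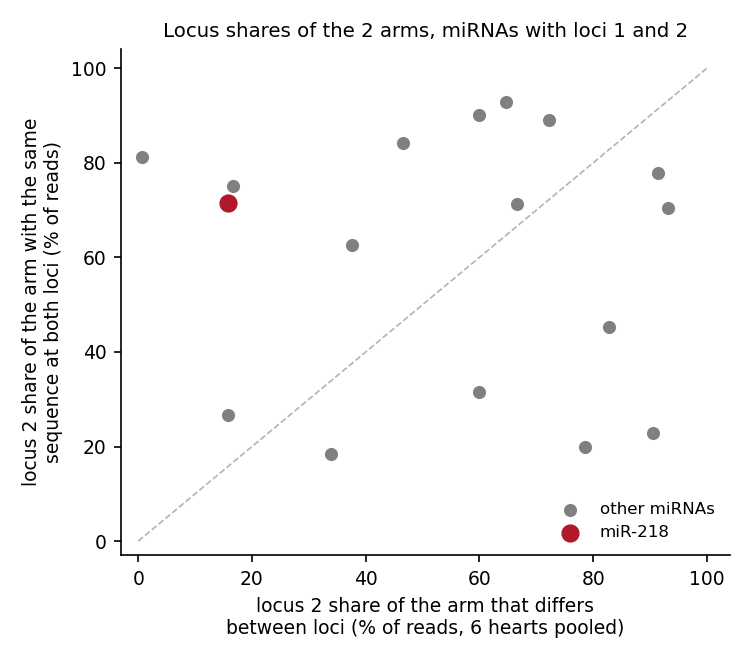
Share of reads at locus 2 for the arm with the same sequence at both loci (vertical axis, percent) against the arm that differs between loci (horizontal axis, percent), 1 point per miRNA, for 17 miRNAs, 6 hearts pooled. On the dashed line both arms would give the same share. miR-218 lies at 15.8% and 71.6%, and 9 of the 17 points, miR-218 included, lie on opposite sides of 50% by their arms.

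Over both loci miR-218 was read mostly from its 5p arm. The 5p share of all miR-218 reads was 96.5%, 95.9%, 96.8%, 95.4%, 98.0% and 96.6% in hearts 1 to 6, a mean of 96.5% ± 0.885 (SD, n = 6). Pooled over hearts there were 1133 reads of 5p and 38 of 3p, or 29.8 to 1 (exact binomial 95% interval 21.6 to 42.4). The log2 ratio was 4.85 ± 0.21 (SE, edgeR quasi-likelihood test with the spread largely pooled over hairpins, adjusted p = 5.1e-99 over 212 hairpins, higher in 6 of 6 hearts), and the exact sign-flip permutation p was 0.03125.

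A 5p excess of this size was ordinary. Of the 212 hairpins tested 48.6% were called with more 5p, by a median of 45.4-fold, and 59 of them had a larger ratio than miR-218. Each hairpin here is a name with its loci summed. The 212 include a row that pools several differently numbered miRNAs, such as miR-300 and miR-381. That row had 507 reads of 5p and 4986 of 3p and was called with more 3p. Because ligation favours some RNA ends, the ratio is one of reads. Summed over the loci, the ratio does not depend on the locus to which a 5p read was assigned. A read counted at both loci would enter the sum more than once. With the larger 5p entry in place of the sum, the log2 ratio was 4.37, and without hearts 4 and 5 it was 4.75.

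**Figure D4:**
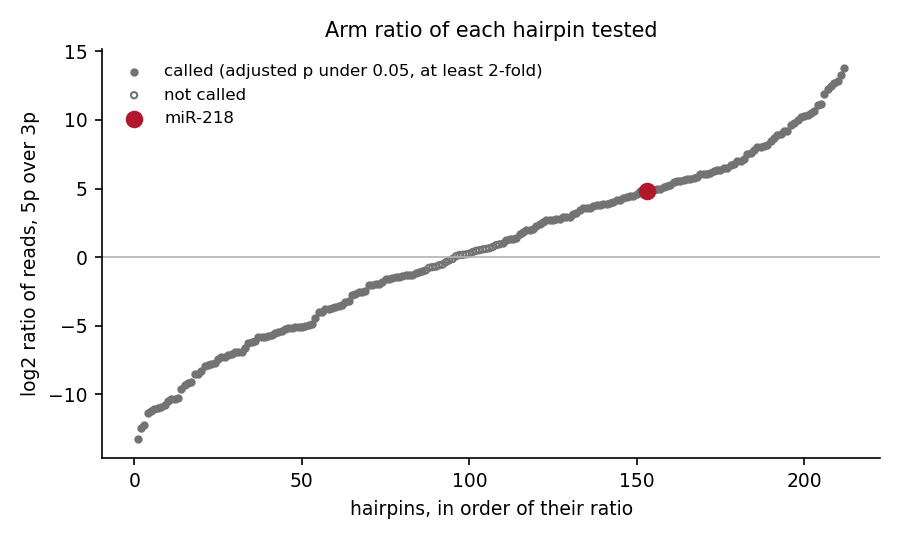
Log2 ratio of 5p over 3p reads for each of 212 hairpin names (loci of the same name summed), in order of that ratio. Filled points passed an adjusted p of 0.05 with at least a 2-fold ratio and open points did not. miR-218, at 4.85, lies within the 5p-rich part of the range.

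By level, the 4 entries stood in the order Mir218-2-5p, Mir218-1-5p, Mir218-1-3p and Mir218-2-3p. No neighbours in that order overlapped over the 6 hearts, at 18.7 to 42.9, 5.03 to 16.4, 0.714 to 2.02 and 0 to 0.357 CPM. The 5p entries both passed a mean of 10 reads and the 3p entries, at 5.33 and 1.00 reads for miR-218-1-3p and miR-218-2-3p, did not. Their places among 1009 mature miRNAs were 407 and 606.

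The arms did not vary together beyond the spread that 6 hearts allow. On log2 CPM after TMM scaling, miR-218-5p had a Pearson r of 0.74 with miR-218-2-3p (exact permutation p = 0.117, adjusted p = 0.350, rho = 0.64, exact p = 0.200). With miR-218-1-3p it had r = 0.17 (exact permutation p = 0.764, adjusted p = 0.914, rho = 0.086, exact p = 0.919). The 3p strands had r = -0.07 with each other (exact permutation p = 0.914, rho = -0.46, exact p = 0.372). Hearts 2 and 5 lay farthest from the median of miR-218-5p, and with both left out r was 0.52 with miR-218-2-3p and 0.84 with miR-218-1-3p. With 0 to 8 reads per library, the 3p counts are too sparse to show how the loci vary.

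miR-218-5p stood below most cell-type markers in reads. All 4 endothelial, 3 smooth muscle, 6 cardiac and skeletal muscle, 4 fibroblast and mesenchymal and 6 blood markers exceeded it. Among the endothelial markers, miR-126a-5p from the vessel gene Egfl7 was 2045 times and miR-222-3p 2.46 times its level, as ratios of mean CPM. Among the fibroblast markers, miR-10b-5p led at 17733 ± 2628 CPM and miR-214-3p, at 92.6 ± 13.7 CPM, was the lowest. Of the neural markers, only miR-128-3p exceeded it, and the median neural marker stood at 1.40 CPM. Across all 1009 mature miRNAs the median was 0.463 CPM.

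No marker list followed miR-218-5p over the hearts after adjustment for 6 relations. Each list was the sum of its members' CPM, so members with many reads dominate its r. In mean CPM, miR-133a-3p held 89004 of the 99414 of the cardiac and skeletal muscle list. Of the smooth muscle list, miR-143-3p held 88965 of 90244, and of the endothelial list miR-126a-5p held 77582 of 90044. Of the fibroblast and mesenchymal list, miR-10b-5p held 17733 of 21470. Of the blood list, miR-451a held 3476 of 6257. The fibroblast and mesenchymal list had r = 0.67 (exact permutation p = 0.142, adjusted p = 0.425, rho = 0.77, exact p = 0.103). Leaving out hearts 2 and 5 gave r = 0.84. The cardiac and skeletal muscle list had r = -0.69 (exact permutation p = 0.133, adjusted p = 0.425, rho = -0.66, exact p = 0.175), which became 0.16 without those hearts and -0.11 on library totals in place of TMM scaling, so that it rests on those hearts and on the scaling. The endothelial list had r = -0.53 (exact permutation p = 0.300, rho = -0.37, exact p = 0.497), the neural list -0.24 (exact p = 0.636, rho = -0.26, exact p = 0.658), the blood list -0.24 (exact p = 0.607, rho = -0.43, exact p = 0.419) and the smooth muscle list 0.07 (exact p = 0.897, rho = 0.31, exact p = 0.564). Without hearts 2 and 5 these were 0.22, -0.16, 0.14 and -0.53 in the same order. Their adjusted p-values ran from 0.600 to 0.897.

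Among 212 miRNAs that averaged 100 reads or more, the patterns most like that of miR-218-5p over the 6 hearts are given as a description. They were miR-339-5p (r = 0.93, 28.6 ± 3.68 CPM), miR-146b-5p (r = 0.93, 240.2 ± 54.4 CPM), miR-208b-3p, whose host is the beta myosin gene Myh7 (r = 0.86, 118 ± 46.7 CPM), miR-676-5p (r = 0.86, 21.1 ± 5.34 CPM) and miR-365-3p (r = 0.82, 39.6 ± 7.17 CPM). miR-208b-3p is also a member of the cardiac and skeletal muscle list, whose sum had r = -0.69. The median r over the 212 was -0.11. After TMM scaling, miR-218-5p stood at 41.2, 25.0, 28.5, 43.3, 55.2 and 32.3 CPM in hearts 1 to 6. Heart 5 was highest for 4 of these 5 and for miR-218-5p, and heart 2 lowest for 4 of them. The heart library, with its depth and scaling, is common to all these values.

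**Figure D5:**
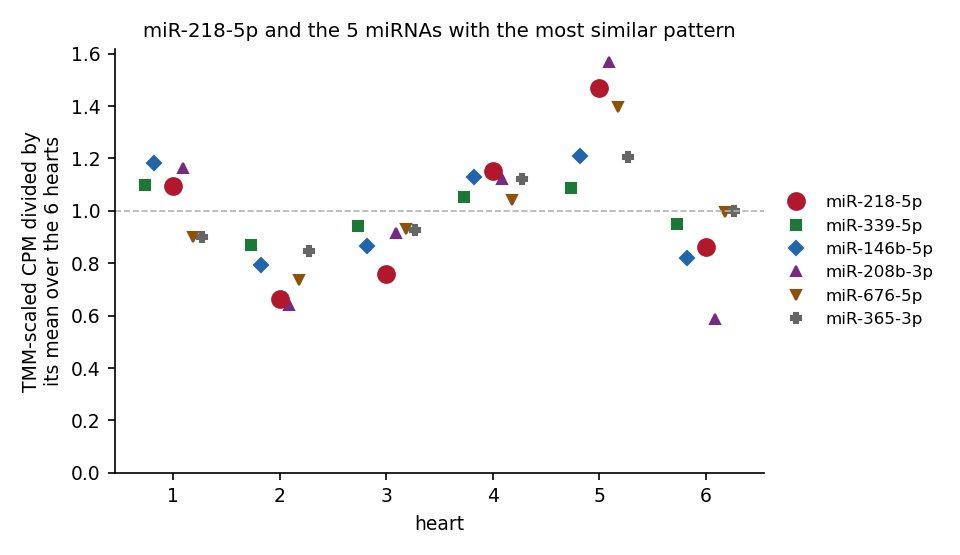
TMM-scaled CPM of miR-218-5p (large circles) and of the 5 miRNAs with the highest Pearson r to it, each divided by its own mean over the 6 hearts (linear axis). The miRNAs were chosen for this likeness. miR-218-5p and 4 of the 5 were highest in heart 5, and miR-339-5p was highest in heart 1.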

How the data were processed

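Small RNA was measured in 6 heart libraries, made per the labels' protocols by ligating adapters to Trizol-extracted RNA (TruSeq). Per the file headers, the authors deposited whole-number read counts per miRNA arm and locus, with the strand relative to the hairpin. Per the submitters' processing notes, GRCm38 was the build, and the notes list DESeq and edgeR with no step or version. No source used here names the aligner or says how multi-locus reads were counted. Totals used the 1026 sense entries and 38 of 76 antisense entries that lie on a hairpin annotated on the opposite strand; the other 38 held at most 0.000706% of a library. Entries of 1 name, arm and sequence were summed, giving 1009 mature miRNAs, 356 of them with a mean of at least 10 reads.

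Loci (numbered 1 and 2, arm sequences that differ) and arms were compared by the edgeR quasi-likelihood test (edgeR 4.0.16, R 4.3.3) with the library as a block, Benjamini-Hochberg adjustment over all pairs or hairpins, and calls at an adjusted p under 0.05 and 2-fold. DESeq2 1.42.0 was an alternative. Log2 CPM used TMM scaling and a prior count of 1. Tested on simulated data with a 4-fold change, the arm test on 213 hairpins recovered 74 of 74 changed hairpins with 0 false calls, and the locus test with no minimum, on 20 pairs, 5 of 6 with 0. RNAfold 2.7.2 gave the free energies.

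Named miRNAs are the members, the 3 neighbours in rank on either side, the 5 most similar by r, the 3 locus pairs nearest in reads, list leaders and seed partners. The members, marker lists and tests were chosen with earlier results of these data known. The labels do not say whether hearts were processed separately, so p-values concern the spread between these libraries.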

Additional observations from a re-analysis of the deposited data

How the results depend on the processing

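Of 126 alternative values for 15 results, 118 were counted as unchanged. For values with a test this meant the same direction and the same side of an adjusted p of 0.05, with the 2-fold threshold not applied. For the spread only the adjusted p of the chi-square test was compared, so the size of the BCV did not count. For the pooled 3p ratio it meant a value inside the exact binomial 95% interval of the pooled reads, a wide range that covers counting error only. For the level it meant a move smaller than the spread. Correlations with 1 heart left out had no test and needed only the same sign, so the count says little about their size. The 3p locus ratio had no test at the minimum of 10 reads (log2 ratio of pooled reads -2.42) and passed with no filter on low counts (-2.28, adjusted p = 0.00052). Leaving out 1 heart gave -2.81 to -2.17 pooled, a planned setting. In the fit with no filter it gave -2.63 to -2.06, and DESeq2 with no filter gave -2.51 (adjusted p = 0.00466). These refits with no filter were joined after the data were seen. The fit with no replicate block (the library as block left out) gave -2.28 for the 3p locus ratio and 4.85 for the arm ratio, and changed no call. The arm ratio ran from 4.65 to 4.98, the arm-by-locus value from 3.31 to 4.09, the BCV from 21.7% to 25.98% and the mean miR-218-5p level from 34.1 to 40.8 CPM with 1 heart left out.

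Correlations, none of them called, moved with the scaling or the hearts used, and several changed sign. The cause was not tested. On library totals r turned to 0.014 between the 3p strands and to 0.036 with the endothelial list, and it was -0.11 with the cardiac and skeletal muscle list, 0.82 with the fibroblast list and -0.0073 with the neural list. With 1 heart left out, r of miR-218-5p ran from -0.15 to 0.68 with miR-218-1-3p, from 0.59 to 0.98 with miR-218-2-3p, and from -0.41 to 0.24 between the 3p strands. It ran from -0.94 to -0.07 for the endothelial, -0.44 to 0.66 for the smooth muscle, -0.97 to -0.40 for the cardiac and skeletal muscle, 0.59 to 0.80 for the fibroblast, -0.46 to -0.09 for the neural and -0.50 to 0.11 for the blood list. The 38 reads of 3p strands limit every statement on the loci.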
